A study of Mus musculus with 8 samples.

Results

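Noncoding snoRNA host genes are spliced transcripts that carry small nucleolar RNAs (snoRNAs) in their introns. A snoRNA is trimmed out of the excised intron by exonucleases that stop at its bound proteins. Box C/D snoRNAs guide 2′-O-methylation of other RNAs and box H/ACA snoRNAs guide pseudouridylation, mostly on ribosomal RNA. Several spliced hosts, Gas5 among them, are short-lived because translation of their short reading frames exposes them to nonsense-mediated decay, so that a host and its snoRNAs, although cut from 1 transcript, can reach very different levels. The hosts described here are Gas5, Rian and the genes named Snhg, each taken if its mean was above 0, and their guests are the features named Snord or Snora, or typed as snoRNA, whose coordinates lie inside such a host and whose mean was above 0. This rule gave 13 members, 10 hosts and 3 guests, of 54531 features in the deposited table. Members were thus chosen by their means over all libraries, so levels are given as a description without a test.

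Small RNA libraries were made from 4 *Rnaseh1* knockout mice and 4 wild-type mice, all C57BL/6 and 24 weeks old. In the knockout a loxP-flanked exon of *Rnaseh1* is removed by Ckmm-cre, Cre recombinase driven by the muscle creatine kinase promoter, which acts in heart and skeletal muscle. Other cells of the heart keep the enzyme. Controls are +/+ by their labels. By the paper, heart controls (L/L) carry the loxP-flanked gene but lack Cre. The labels name heart tissue as the source, whereas the paper describes RNA of isolated heart mitochondria, and the 8 deposited columns per library have names that start with mtRNA. Which was sequenced was not settled here. The column names show neither a library title nor a genotype, so these columns were not used, and levels below are the authors' mean over all 8 libraries of both genotypes, without an error. No value is given per library or per genotype.

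The unit is the scaled read, a read count divided by the size factor of its library. Over all features the authors' means summed to 822885 scaled reads, of which snoRNA features held 78.2%. Of 1508 snoRNA features, 254 had a mean above 0, with a median of 1.02 and a highest mean of 180452 scaled reads. *Rnaseh1* was listed at 0 and gave no check of the genotypes. All 10 cardiomyocyte markers had a mean of at least 10, between 20.3 and 662 scaled reads, the highest being Myh6, the alpha cardiac myosin heavy chain. Markers of fibroblasts lay between 2.16 and 20.8, of endothelial cells between 1.81 and 10.6, of red blood cells between 6.18 and 11.8 and of leukocytes between 0 and 6.42 scaled reads, and 1 of 4 neuronal markers was above 0. In bulk libraries, a lower share of the cells of a type and less RNA per cell cannot be told apart.

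The 3 guests with reads were box C/D snoRNAs by sequence, and they are shown first because the comparison with the hosts turns on them. Capitals mark the C box, TGATGA within the first 20 bases, and the D box, CTGA within the last 15 bases, both searched on the strand of the snoRNA. Sequences are those of GENCODE M21 transcripts on GRCm38. Snord123 lies at chr15:32241853-32241923 on the minus strand, in an intron of Snhg18. DQ267102 lies at chr12:109656345-109656416 and Gm24564 at chr12:109631074-109631148, both on the plus strand in introns of Rian. DQ267101 at chr12:109651424-109651496 is the closest relative of DQ267102 in Rian, lies in a Rian exon and was listed at 0.
Snord123: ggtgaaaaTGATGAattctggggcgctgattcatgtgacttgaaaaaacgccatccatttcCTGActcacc
DQ267102: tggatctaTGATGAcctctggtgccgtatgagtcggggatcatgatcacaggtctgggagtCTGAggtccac
DQ267101: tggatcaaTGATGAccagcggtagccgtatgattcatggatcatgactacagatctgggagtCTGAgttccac
Gm24564: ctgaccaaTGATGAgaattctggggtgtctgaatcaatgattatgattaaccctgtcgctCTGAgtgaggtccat

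The 10 hosts spanned from 0.0637 to 3259 scaled reads, and 3 of them held 98.9% of the host sum of 6012. Snhg1, at chromosome 19, 8723475 to 8726443, had a mean of 3259 scaled reads. Gas5, growth arrest specific 5, at chromosome 1, 161034422 to 161038539, had 2268. Snhg5, at chromosome 9, 88521050 to 88522929, had 419.8, and Snhg12, at chromosome 4, 132308623 to 132311024, had 51.6. Rian, at chromosome 12, 109603940 to 109661716, had 6.43, and Snhg18, at chromosome 15, 32240565 to 32244662, had 0.138. The 6 hosts below Snhg12 were all under 10.

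Per kilobase of annotated exon the order of the highest hosts stayed the same. Exon lengths took in transcripts that keep an intron and the bases shared with snoRNA genes, both described below. Snhg1 had 1098 scaled reads per kb, Gas5 603, Snhg5 243 and Snhg12 21.5, which placed them 3rd, 6th, 8th and 11th of 422 long noncoding features above 0 with a length. Snhg17, at chromosome 2, 158353700 to 158361580, had 0.387 per kb and Rian 0.353 per kb, so that these 2, whose means were 2.73 and 6.43 scaled reads, changed places once length was counted. Snhg18 had 0.0930 per kb, Snhg8 0.0747 and Snhg11 0.0121. Snhg11 is typed as protein coding in the table and was kept because the rule goes by name. Snhg4, on chromosome 18, had a mean of 4.33 scaled reads and no value per kb, since its identifier was not in GENCODE M21.

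The lowest hosts rest on very few reads. Multiplied by the number of libraries, the mean of Snhg18 came to 1.11 scaled reads over all 8 libraries together, that of Snhg11 to 0.823 and that of Snhg8 to 0.510. Gm24564, the lowest guest, came to 1.54. The mean of Snhg18 recurred to the last digit for Gm25585, that of Snhg11 for Naf1, that of Snhg8 for Shq1 and that of Gm24564 for Gm25121. Such repeats are what a single read in a single library would give, but values per library were not looked at. The members Snhg18, Snhg11, Snhg8 and Gm24564 may thus each rest on a single read. They are the members just inside the threshold of a mean above 0, and just outside it stood features listed at 0. A further 8 genes named by the rule (Snhg3, Snhg6, Snhg7os, Snhg9, Snhg10, Snhg14, Snhg15 and Snhg20) were listed at 0.

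**Figure D1:**
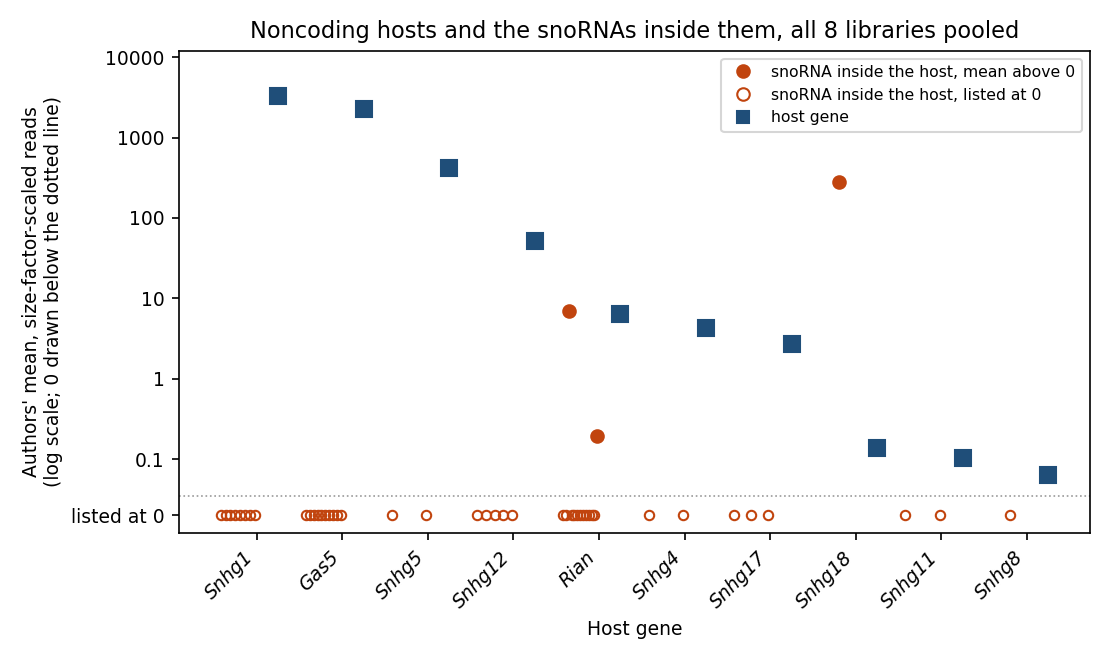
Authors' mean over all 8 libraries, in size-factor-scaled reads on a log axis, of each snoRNA gene inside a host (circles, left) and of the host itself (squares, right), for the 10 hosts in order of level. Open circles below the dotted line are snoRNAs listed at 0. The 4 hosts of 51.6 or more scaled reads have open circles only, while Snord123 stands at 278 beside Snhg18 at 0.138. All snoRNA genes of these 4 hosts lie in a host exon, where by default reads that fall in both genes are not counted.

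Inside the 10 hosts the table annotates 47 snoRNA genes, and 44 of them were listed at 0. Most snoRNA features were at 0 in the whole table too, where 254 of 1508 had a mean above 0. Snhg1 holds 8 and Gas5 holds 10, of which a pair of entries named Snord80 overlap, and none had a mean above 0. Both Snord50 genes of Snhg5 and all 5 entries in Snhg12, namely Snora44, Snora61, Snord99 and a pair of overlapping entries named Snora16a, were listed at 0 as well. Thus all 25 snoRNA genes inside the 4 highest hosts were at 0, with host means between 51.6 and 3259 scaled reads. All 25 lie in a host exon, and by default a read that falls in both genes is left out of the counts. These snoRNAs therefore cannot be ranked against their hosts. Rian holds 13 and had 2 above 0, and Snhg18 holds Snord123 alone. The 3 in Snhg17, the 2 in Snhg11, the 2 in Snhg4 and Snora24 in Snhg8 were listed at 0.

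By their means, the 3 guests stood far above, close to and below their hosts. These ratios compare reads in small RNA libraries, where a long host can leave only fragments. They do not give the relative amounts of a snoRNA and its host RNA. Snord123 had a mean of 278 scaled reads and Snhg18 0.138, a ratio of 2014 (log2 10.98). That ratio rests on the 1.11 scaled reads of the host given above. Per base, Snord123 had 3.92 scaled reads and Snhg18 9.3e-05 per exon base, a log2 ratio of 15.36. DQ267102 had a mean of 7.04 and Rian 6.43, a log2 ratio of 0.13, which became 8.12 per base because the exons of Rian add up to 18234 bases against 72 bases of snoRNA. Gm24564 had a mean of 0.193 against the same 6.43 of Rian, a log2 ratio of -5.06. Per base its log2 ratio turned positive, at 2.87.

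The guests held little of the snoRNA signal. Together they had 285 scaled reads, 0.0444% of the 643275 of all snoRNA features. By mean, without regard to length, Snord123 ranked 40th of 254, DQ267102 84th and Gm24564 197th. The snoRNAs of Rian, which lie in the imprinted Dlk1-Dio3 region expressed from the maternal chromosome, are known as orphans without an assigned ribosomal target.

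The snoRNA genes with reads and those listed at 0 differed in where they lie relative to exons. The rule did not use this property, but the counting did: by default a read that falls in both genes is left out. Cover and mean are therefore not independent, and the division is no independent test. In GENCODE M21, 38 of the 47 lie wholly within an exon of their own host, and 0 of these 38 had a mean above 0. Gm24899 in Rian lies within an exon of another gene, Gm26945. The 2 in Snhg4, whose identifier was not in GENCODE M21, lie within exons of an entry named AC121821.1. Whether that entry is Snhg4 under another identifier was not looked at. All 3 snoRNA genes were listed at 0. The other 6 lie only in introns, and 3 of these had a mean above 0, namely Snord123, DQ267102 and Gm24564. This count includes the exons of retained_intron transcripts. Without them 28 of the 47 lay between host exons, and 3 of these 28 were above 0 (10.7%). With all exons, the intronic snoRNAs listed at 0 were Gm25357 and Gm23600 in Rian and Gm25129 in Snhg11. Every snoRNA gene with a known host strand, 45 of 47, lies on the strand of its host.

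Many of the exons involved belong to transcripts that keep an intron, as for 24 of the 38 snoRNA genes in a host exon. Snhg1 has 18 annotated transcripts, 14 of them typed as retained_intron, and Gas5 has 25, of which 20 are. Their exons cover the whole Snhg1 gene and 91.3% of Gas5, against 36.3% of Snhg18 and 31.6% of Rian. Of the 38, 21 are covered by retained_intron transcripts only. In the smaller basic set of GENCODE, 13 of the 38 remain over a host exon. The shared bases make up 20.9% of the exon length of Snhg1, 17.8% of Gas5, 19.6% of Snhg12, 8.32% of Snhg5, 3.20% of Rian and 0 bases of Snhg18.

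**Figure D2:**
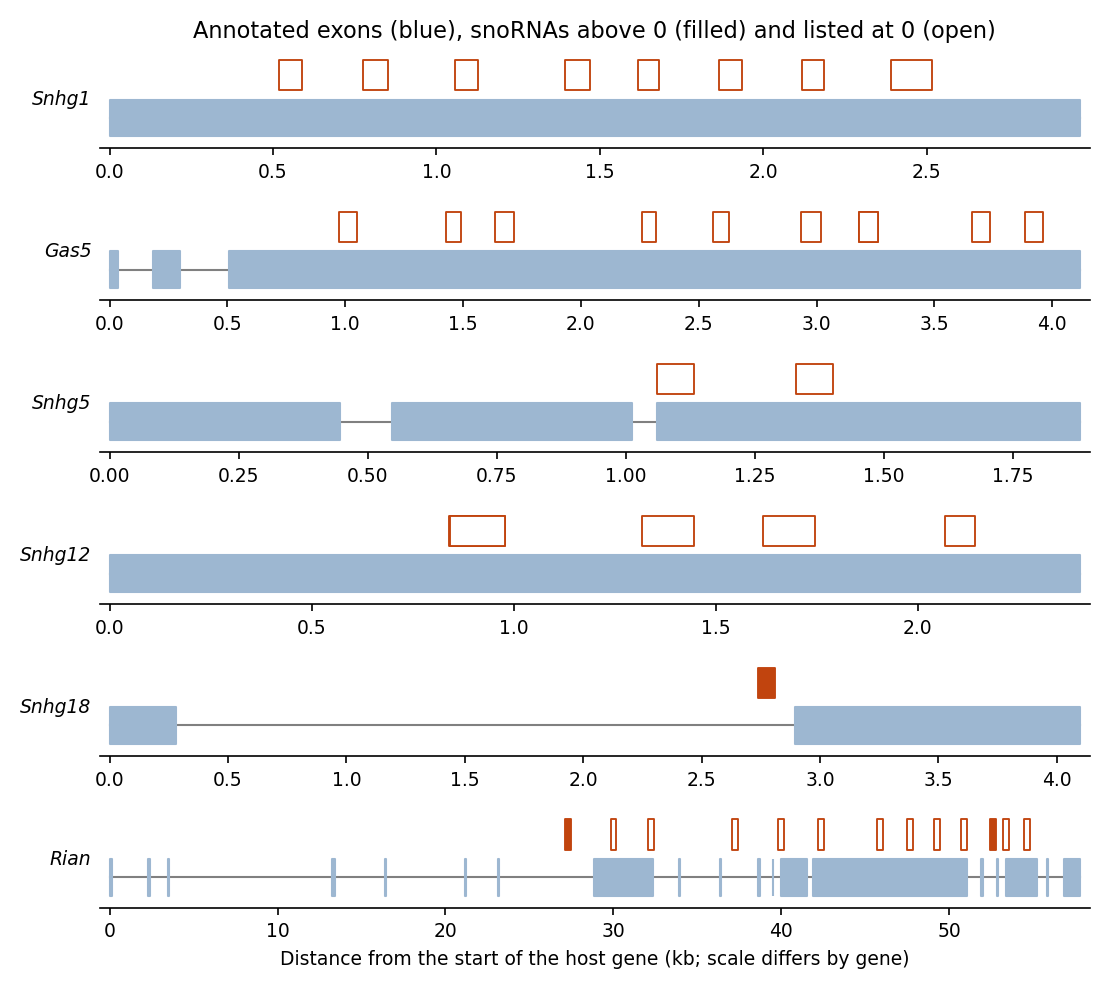
Map of 6 hosts from their start, in kb on a scale that differs by gene, with the union of annotated exons in blue and snoRNA genes above it, filled where the mean was above 0 and open where listed at 0. Overlapping entries (Snord80 in Gas5, Snora16a in Snhg12) coincide, and snoRNAs in Rian are drawn wider than scale to be visible. The filled boxes of Snhg18 and Rian stand over introns, and every box of Snhg1, Gas5, Snhg5 and Snhg12 stands over an exon.

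The same division, no independent test either, was seen among snoRNA features outside all 18 named hosts. Of 1248 such features, 90 lie wholly in an exon of another gene on the same strand, and 0 of these had a mean above 0. Of the 34 that an exon covers in part, 24 were above 0 (70.6%), and of the 1124 in no such exon, 146 were (13.0%). Of these 1124, 53 carry a Snord or Snora name. Among features named Snord or Snora, 51 of 53 in no exon were above 0 (96.2%), 7 of 10 covered in part (70.0%) and 0 of 41 wholly covered. The 15 snoRNA genes with such names inside the 10 hosts divided likewise, with Snord123, the only such gene in no exon, above 0 and 0 of 14 wholly covered. Among all 1508 snoRNA features, 133 were wholly covered and each of the 133 was listed at 0.

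Exons on the opposite strand were looked at in the same way. Of 13 snoRNA features outside the hosts that lie wholly in an exon of the other strand, 4 had a mean above 0, and both with a Snord or Snora name did, at 2331 and 21302 scaled reads. Of 3 covered in part by such an exon 0 were above 0, and of 1232 in none 166 were (13.5%). Reads were counted by strand, and the counting program by default leaves out a read that falls in more than 1 gene on its strand. What became of reads from the covered snoRNAs was not tested, nor was where along Snhg1, Gas5, Snhg5 or Snhg12 the reads of the host lie. A listed 0 does not show that the snoRNA was absent from these hearts.

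**Figure D3:**
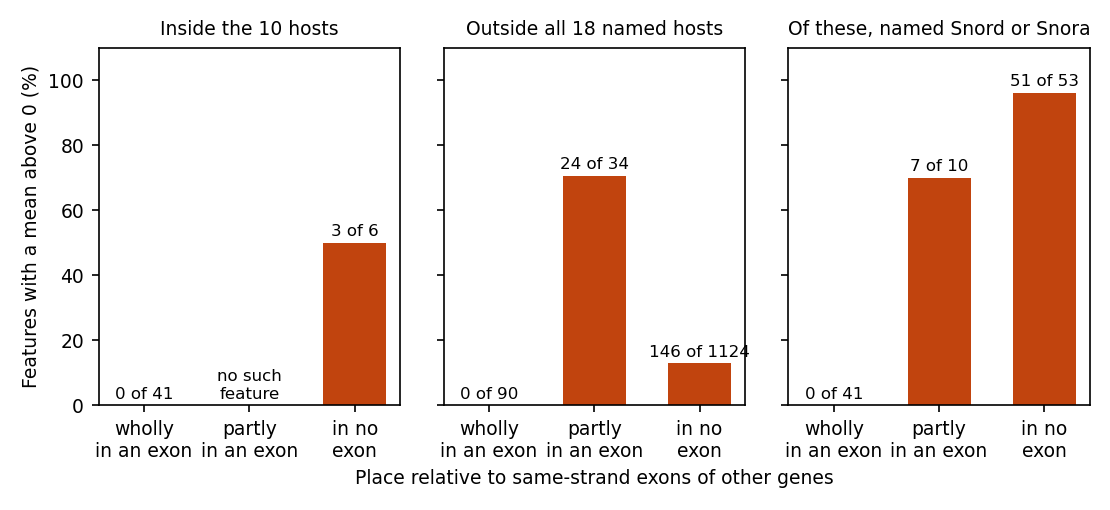
Share of snoRNA features with a mean above 0 (%), by whether an exon of another gene on the same strand covers them wholly, in part or not at all, inside the 10 hosts, outside all 18 named hosts, and outside them with a Snord or Snora name. Bars start at 0 and carry their counts. No wholly covered feature was above 0, with 0 of 41, 0 of 90 and 0 of 41. By default, counting leaves out reads that fall in several genes on a strand, so cover and mean are not independent.

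Some hosts listed at 0 held snoRNAs with reads, 81 of 213 snoRNA genes in all. Snord87 had a mean of 980 scaled reads, the highest of any snoRNA inside a named host, and lies in an intron of Snhg6, which was listed at 0. Snora73b had 2.56 and Snora73a, which an exon covers in part, had 1.16, both inside Snhg3, listed at 0. Snora78 had 0.425 inside Snhg9, also at 0. In Snhg15, Snora9 lies wholly in an exon and was at 0 like its host. Snhg14, the imprinted host of the Snord115 and Snord116 clusters, known for its expression in neurons, holds 208 snoRNA genes, of which 77 were above 0, none higher than 1.15. The means of its snoRNA genes summed to 24.9 scaled reads. Many of the 77 had the same mean to the last digit, such as 0.193 for Gm25121. The genes of these clusters were not compared by sequence, and reads that fit several of them were not looked at. The 77, and the totals that include it, thus count entries and not snoRNAs told apart. Of the 213, 209 lie in no exon and 80 of these were above 0 (38.3%), 1 of 2 covered in part was, and 0 of 2 wholly covered were. The rule does not take them as guests, because their hosts were at 0.

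Snord47 and Snord78 of Gas5 guide methylation of the large ribosomal RNA, as do the Snord50 pair of Snhg5. These covered box C/D snoRNAs are printed because a listed 0 stands against a host of 2268 and of 419.8 scaled reads. Snord47 lies at chr1:161038082-161038158 and Snord78 at chr1:161036984-161037049 on the plus strand, and Snord50a at chr9:88521529-88521600 and Snord50b at chr9:88521797-88521868 on the minus strand. Capitals mark the boxes found, and in Snord78 the exact C box was not.
Snord47: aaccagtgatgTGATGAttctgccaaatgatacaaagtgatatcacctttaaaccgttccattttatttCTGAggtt
Snord78: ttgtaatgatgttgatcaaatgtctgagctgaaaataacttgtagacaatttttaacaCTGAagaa
Snord50a: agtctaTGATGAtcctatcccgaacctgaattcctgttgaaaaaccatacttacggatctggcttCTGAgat
Snord50b: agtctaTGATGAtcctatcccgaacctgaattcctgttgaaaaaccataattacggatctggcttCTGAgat
The Snord50 genes match at 71 of 72 bases (98.6%), so a read from the shared bases fits both. Of the 45 snoRNA genes outside Snhg4, whose pair was not searched, 24 had both the C and the D box, 10 had 1 of these boxes, 9 had neither but ACA within the last 6 bases, the mark of box H/ACA snoRNAs, and 2 had none of the 3 motifs. Over all 1508 snoRNA features, 20.2% had both C and D boxes and 42.4% had the ACA with neither.

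Distances from a snoRNA to the next exon of its host ranged widely. Box C/D snoRNAs are known to sit at a short, fixed distance before the 3′ splice site. Distances were taken for the 28 that lie between host exons without retained_intron transcripts. In Gas5 the 10 ended between 65 and 314 bases before the next exon, with a median of 73.5, and in Snhg1 6 did so between 51 and 121 bases, with a median of 69.5. Both Snord50 genes ended 80 bases before it and Snord123 83 bases, in an intron of 2612 bases against introns of 175 to 292 bases in Snhg1. Snora24 in Snhg8, listed at 0, ended 74 bases before it. Distances were longer in Rian, from 91 to 1649 bases over 5 snoRNAs, with 371 for DQ267102, 1649 for Gm24564 and 1470 for Gm24899. They were also longer for snoRNAs listed at 0 in Snhg11, at 1104 and 2416 bases, and for Gm23925 in Snhg17, at 365 bases. The snoRNAs of Snhg11, Gm23925 and Snora24 had the ACA mark and neither C nor D box. The distance known for box C/D snoRNAs does not concern them.

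The 13 snoRNAs of Rian varied in how alike they are. DQ267102 matched the 12 others at between 58.7% and 83.6% of bases, with a median of 70.8%, and was closest to DQ267101 at 61 of 73 bases. Gm24564 matched them at between 48.0% and 76.0%, with a median of 64.0%, closest to Gm24899 at 57 of 75 bases. It matched Snord123, on another chromosome, at the same 64.0%. Both closest relatives are covered by exons and were listed at 0. Gm25357, intronic and listed at 0, matched DQ267102 at 80.6% of bases. Among snoRNA features within 15 bases of its length, the closest to Snord123 were Snord61 and Scarna9, both matching at 64.8%. Besides snoRNAs, Rian holds 4 features typed as miRNA, of which only Mir341 was above 0, at 0.152 scaled reads.

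Apart from Nop56, messenger RNAs of the snoRNA machinery left few fragments in these libraries. All 4 core proteins of box C/D particles were above 0, with Nop56 at 104.9 scaled reads and the others, Nop58, the methyltransferase Fbl and Snu13, between 0.127 and 0.767. Nop56 is itself known as a host of intronic snoRNAs. The 4 core proteins of box H/ACA particles, among them the pseudouridine synthase Dkc1, lay between 0.442 and 0.627. Of 11 assembly factors 10 were above 0, the highest being Pih1d1 at 0.614. The 8 factors of nonsense-mediated decay lay between 0.218 and 3.28, the highest being the kinase Smg1. Per kilobase of exon, Nop56 had 25.6 scaled reads, close to the 21.5 of Snhg12 and below the 1098 of Snhg1.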

How the data were processed

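Small RNA libraries of 8 hearts were sequenced as single-end reads. The authors used Bowtie2 (2.3.4.1, defaults) for alignment to mm10 and counted reads per gene, stranded, with featureCounts version 1.6.3 on Ensembl release 94 of GRCm38 joined to a mitochondrial annotation of their own. The only counting option that the paper lists for small RNA is the strand setting. It lists none for reads that overlap several genes, which the program leaves out by default. The deposited mean per feature is a signal, the read count divided by a DESeq2 (version 1.18.1) size factor, then averaged over the 8 libraries by the authors. The table also holds the authors' log2 fold change, its standard error, a Wald statistic and p-values before and after adjustment, none of which was used. The 8 columns per library match no label, so they were not assigned or used, and library depth is not analysed here. The planned tests of knockout against wild type (limma on log2 values and permutation tests of guest minus host) could therefore not be run.

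Hosts and guests were taken by name, type, mean and coordinates, and the mean of the rule was the authors' mean. The members and gene lists were chosen with earlier results of these data known. Exons, strands and snoRNA sequences came from GENCODE M21 on the same build, which held 54458 of the 54531 feature identifiers. All 47 snoRNA genes inside the hosts and 9 of the 10 hosts had the same coordinates in both. Its exon models may differ from those of Ensembl release 94. A snoRNA was wholly covered if 1 exon of a gene of another name that is no snoRNA, on the same strand, spanned it, and partly covered if such an exon overlapped it. Identity was the number of matching bases in a global alignment over the longer length. Each host above 0 was named, together with guests of at least 10 scaled reads and the highest guest of a host. Gm24564 and snoRNAs listed at 0 were named after their values were seen, to account for every member. Analyses used Python version 3.11.15 with numpy 2.4.6, pandas 2.3.3, biopython 1.88 and matplotlib 3.10.9. Alternatives varied the minimum mean, strand, overlap, length scaling, denominator and exon set.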

Additional observations from a re-analysis of the deposited data

How the results depend on the processing

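The number of guests above 0 was 3 with the strand required, with any overlap accepted, and as reported. It was 2 with a mean of at least 1, 1 with a mean of at least 10, and 84 with hosts listed at 0 included, an alternative chosen after seeing the data. The median log2 ratio of guest over host was 0.13 and became 8.12 per base, 5.55 for guests of at least 1 and 10.98 for guests of at least 10, which leave 2 and 1 of 3 guests. The log2 ratio of Gm24564 over Rian reversed, -5.06 by means and 2.87 per base, because of the length of the exons of Rian. The share of snoRNA signal held by the guests was 0.0444%, 0.0597% over named features and 0.00112% without Snord123. The count of guests at 0 in a host exon was 38 with all exons and 13 with the basic set, chosen after seeing the data. The share of intronic snoRNA genes above 0 was 3 of 6 with all exons and 10.7% (3 of 28) with retained_intron transcripts left out, also chosen after seeing the data. The 0 above 0 among covered snoRNAs could not change, since each alternative kept a subset of features already at 0.

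No paired analysis was possible because the columns per library carry no replicate number of the labels. Leaving out each library was not possible for the same reason. A single mean without an error limits every ratio, and a member of about 1 scaled read over 8 libraries has no usable precision.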
